A study of Mus musculus with 57 samples.

Results

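The hearts described here are the vehicle-treated control (Ctrl) hearts of an acute and of a chronic doxorubicin (Doxo) study in mice. They were chosen by their labels alone, as the 14 Ctrl hearts of the acute study and the 5 Ctrl hearts of the chronic study, 19 of the 57 hearts sequenced. All 19 came from male wild-type C57BL6/J mice that received neither Doxo nor nicotinamide mononucleotide (NMN). Poly(A) RNA of each frozen heart was sequenced, and the deposited values are reads counted per gene. The labels name heart as the tissue and do not say which chambers were taken.

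Acute Ctrl mice were bought from Janvier at 9 weeks of age, kept in Toulouse on SAFE 150 chow, given saline by intraperitoneal (i.p.) injection throughout the study, and sampled on day 5, counted from the Doxo injection of the treated mice, 2 h after the last injection. Chronic Ctrl mice were bought from Jackson Laboratories at 12 weeks, kept at the Buck Institute on Teklad 2918 chow, given 5 i.p. injections of PBS from 14–16 weeks of age, and sampled on day 60 after the first one. RNA of the acute hearts was sequenced in Leipzig and that of the chronic hearts in New Jersey. Supplier, age, diet, vehicle, time since the last injection, facility, sequencing site and gene table all changed together with the study, so these cannot be told apart in any difference between the sets given here.

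The heart is a muscle that works without rest, and most of its RNA serves contraction and the making of ATP. Contraction rests on the sarcomere, in which myosin (*Myh6* is the main heavy chain of the adult mouse heart) pulls on actin (*Actc1*), and on calcium that is released through *Ryr2* and pumped back by *Atp2a2*. ATP comes mainly from fatty acids burned in mitochondria, whose respiratory chain is encoded partly by mitochondrial DNA and partly in the nucleus. The heart also keeps a circadian clock, in which *Arntl* and *Clock* switch on genes such as *Per1* and *Dbp* at certain hours of the day.

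The 2 tables were joined by gene symbol, which left 25416 genes, and 14341 of them had enough counts to be tested. Over the joined genes the acute Ctrl hearts held 32409622 to 43907454 counts and the chronic Ctrl hearts 17624351 to 20680837. Levels are given as CPM (counts per 1000000 counts) after TMM normalization, and 3 counts, taken as the lowest detectable level, amount to 0.0683–0.0926 CPM in acute and 0.145–0.170 CPM in chronic hearts before it, for counting error only. No pair of hearts was alike enough to be the same library. Of the counts from 1 to 20, between 70.9% and 75.3% were even numbers in the acute hearts and between 42.2% and 43.2% in the chronic hearts, so that the number of reads behind an acute count is unsure. One library stood apart in the chronic set. In chronic Ctrl 1, 22.6% of 7689 well measured genes lay 1.5-fold or more from the mean of the other 4 hearts, against 0.234–2.15% in each of those 4 and 0.338–1.53% in each acute heart. Several results are also given without it. The replicate numbers of the labels do not say whether mice shared a cage. The p-values set a difference between the sets against the spread between these hearts, and hold no measure of the spread between studies.

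Both sets had the RNA profile of heart muscle, led by mitochondrial and sarcomere RNA. To compare genes with each other, counts were divided by the exon length of the gene and scaled to the same sum (1000000) in each heart. Ranked by this length-scaled level, 14 of the 15 most abundant genes were the same in both sets, as were 40 of the top 50, 78 of the top 100 and 423 of the top 500. The first 6 places held the same genes in the same order. *mt-Co1*, a subunit of cytochrome c oxidase (respiratory complex IV), came first at a length-scaled level of 144441 ± 5986 (SD, n = 14) in acute and 139553 ± 6303 (SD, n = 5) in chronic Ctrl hearts. *mt-Cytb* of complex III came second, and its length-scaled level was 76837 ± 3077 in acute and 100451 ± 9719 in chronic hearts, with no overlap between the sets. The 4 that followed, *mt-Nd1*, *mt-Nd2*, *mt-Nd5* and *mt-Nd4*, are subunits of complex I. In the plot of the most abundant genes these levels ran from 23650 to 71803 in the chronic and from 25782 to 63498 in the acute mean.

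**Figure D1:**
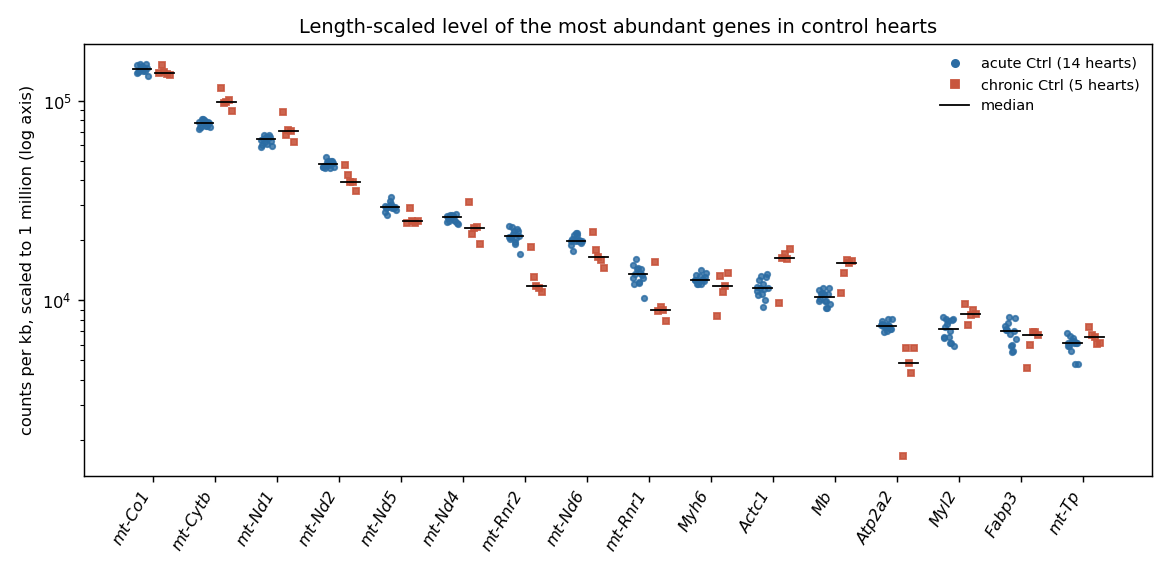
Length-scaled level (counts per kb of exon, scaled to a sum of 1000000, log axis) of the 16 genes that were among the 15 most abundant in either set, 1 point per heart with the median as a bar. Points of both sets overlap for most genes, while *mt-Cytb* lies higher in all 5 chronic Ctrl hearts and *Atp2a2* lower.

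Among nuclear genes, *Myh6* was the most abundant in acute hearts at a length-scaled level of 12817 ± 634 and stood at 11614 ± 2124 in chronic hearts. *Actc1* (cardiac actin), *Mb* (myoglobin, which stores oxygen), *Myl2* (ventricular myosin light chain) and *Fabp3* (the fatty acid carrier of muscle) were in both lists of 15. The acute list also held *Atp2a2*, the calcium pump SERCA2, at 7478 ± 340 against 4482 ± 1693 in chronic hearts, with no overlap. Of the chronic hearts, chronic Ctrl 1 was lowest for *Atp2a2* at 1658. The chronic list held *mt-Tp*, the mitochondrial proline tRNA, in its place, at 6556 ± 545 against 5997 ± 597. In CPM *mt-Tp* was at 116 to 199 in acute and 161 to 227 in chronic hearts, so its rank rests on its short length. Genes of heart myocytes were thus abundant in all 19 hearts. Of those named here *Myl2* is the ventricular one, and its length-scaled level was at least 5919 in every acute and 7500 in every chronic heart.

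The share of counts in the 13 protein genes of mitochondrial DNA was 21.01 ± 1.09% (SD, n = 14) in acute and 22.3 ± 2.67% (SD, n = 5) in chronic Ctrl hearts. Of these genes, 6 were at no more than 11.4 CPM in any chronic Ctrl heart, as given below. How reads with several places were counted is not given, so the share and the ranking above hold for reads as counted. The share was 26.7% in chronic Ctrl 1 and 19.37–21.97% in the other 4. The difference of 1.33 percentage points was within the spread between hearts (exact permutation test, two-sided, p = 0.130). The 10 most abundant genes took 27.8 ± 1.14% of the counts in acute and 28.9 ± 2.15% in chronic hearts (exact permutation test, two-sided, p = 0.147). With every heart thinned to the same total, 14514 ± 276 genes reached 3 counts in acute and 14264 ± 165 in chronic hearts (exact permutation test, two-sided, p = 0.0720). Adjusted over these 3 comparisons, each p was 0.147. The p fell to 0.0206 for mitochondrial DNA genes and to 0.0386 for the top 10 without chronic Ctrl 5, which had the lowest mitochondrial share in its set, and to 0.0366 for detected genes without chronic Ctrl 1. Without chronic Ctrl 1 the mitochondrial difference was 0.240 percentage points (exact permutation test, p = 0.709). Detected genes numbered 14568 to 14885 in acute replicates 2, 3, 4, 8, 9, 10, 11 and 14, which held atrial RNA as given below. They numbered 14164 to 14306 in the other acute hearts and 14103 to 14544 in chronic hearts. Among hearts under 100 CPM of *Myl4*, an atrial gene, the mitochondrial difference was 0.367 percentage points (exact permutation test, p = 0.775). That of the top 10 was 0.0862 there (exact permutation test, p = 0.911).

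The hearts of a set resembled each other closely. Over the 7689 genes with a mean of at least 10 CPM in both sets, the median SD of log2 CPM between hearts was 0.113 in acute Ctrl (quartiles 0.0850 and 0.155) and 0.192 in chronic Ctrl (quartiles 0.128 and 0.283). The SD was under 0.2 for 87.3% of these genes in the acute set and for 52.6% in the chronic set. Without chronic Ctrl 1 the chronic median was 0.118, and leaving out any other chronic heart gave 0.187–0.210. The acute median was 0.111–0.115 without any single heart and 0.122 with acute hearts thinned to the depth of the chronic ones. Spearman correlations between hearts were 0.978–0.996 within the acute set, 0.972–0.995 within the chronic set and 0.918–0.972 between sets. The distribution of the SD over genes shows that the chronic curve moved close to the acute one when chronic Ctrl 1 was left out.

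**Figure D2:**
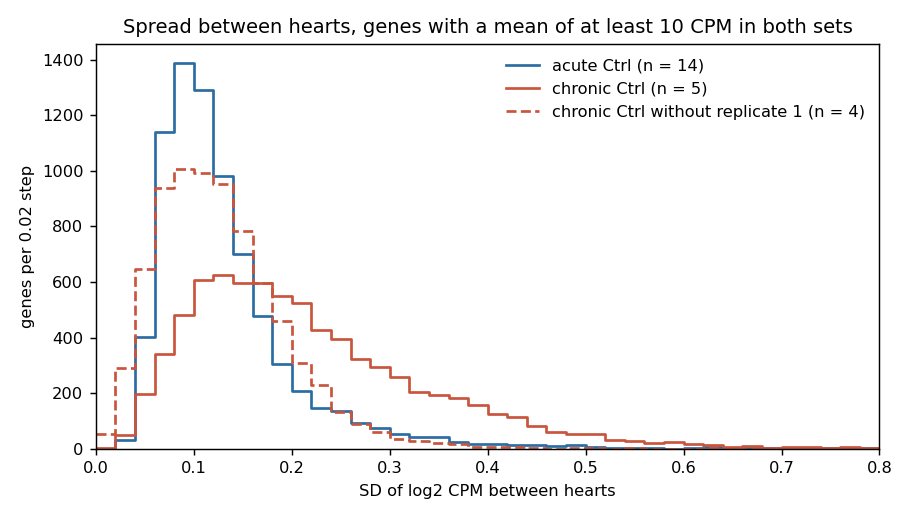
Number of genes (y axis) by the SD of log2 CPM between hearts (x axis, steps of 0.02) for 7689 genes with a mean of at least 10 CPM in both sets. The chronic Ctrl distribution (5 hearts, median 0.192) is wider than the acute one (14 hearts, median 0.113), and the broken line leaves out chronic Ctrl 1 (4 hearts, median 0.118).

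The genes that varied most between acute Ctrl hearts were atrial ones. *Bmp10*, a growth factor of the atria, ranged from 0.438 to 953 CPM over the 14 hearts, *Sln* (sarcolipin, an inhibitor of the calcium pump in the atria) 0.195 to 421 CPM, and *Myl7*, the atrial myosin light chain, 0.637 to 1139 CPM. *Myl4*, the other atrial light chain, ranged 2.45 to 1607 CPM. Their SD of log2 CPM was 4.66, 4.60, 4.54 and 4.18. *Mybphl*, *Tmem163*, *Cilp2*, *Dkk3*, *Fgf12* and *Car3* completed the 10 most variable acute genes. The 7 atrial markers summed to 3030–6195 CPM in 8 acute hearts (replicates 2, 3, 4, 8, 9, 10, 11 and 14) and to 64.3–133 CPM in the other 6, with no heart between. Chronic hearts summed to 235, 115, 112, 108 and 127 CPM. The acute hearts thus fell into a high and a low set for these markers, and all 5 chronic hearts lay near the low one.

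Other cell types varied too. The summed level of 8 red cell markers, led by the globin *Hbb-bs*, was 469–4497 CPM in acute hearts (median 1171) and 167, 154, 416, 285 and 461 CPM in chronic hearts, so that the sets did not overlap. *Hbb-bs* alone ranged 213 to 2102 CPM in the acute set. *Car3*, an enzyme of fat and slow muscle, ranged 0.0973 to 37.3 CPM, and *Adipoq*, the hormone of fat cells, from 0 to 6.96 CPM. The 5 lung markers summed to at most 0.219 CPM in any heart, and none of them passed the filter on low counts. Among the 7689 genes with a mean of at least 10 CPM in both sets, 10 of the 100 with the largest SD in each set were shared. This leaves out genes with a lower mean in 1 set, such as *Bmp10* and *Myl4*.

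In the chronic set the most variable genes were those of fast skeletal muscle. *Myh2*, *Myoz1*, *Mylpf*, *Pvalb*, *Myh4* and *Myh1* were among its 10 most variable genes, with *Pm20d2*, *Pdpr*, *Car3* and *Gpam*. *Myh4*, the fast myosin heavy chain of type IIB fibres, stood at 1135, 908, 286, 311 and 274 CPM in chronic Ctrl 1 to 5, and at no more than 0.0637 CPM in any acute heart, which is under the lowest detectable level. The 9 fast-muscle markers summed to 2513, 2152, 697, 721 and 687 CPM in the chronic hearts and to 25.7–95.6 CPM in the acute hearts, so the sets did not overlap. Chronic Ctrl 1 and 2 were the highest. Most of the acute sum, on average 56.3 CPM, was the marker *Myl1* (mean 52.4 CPM). The acute sum was 55.9–95.6 CPM in the hearts high for atrial markers and 25.7–36.6 CPM in the others. All 9 markers were called higher in chronic Ctrl by the test given below, which called 15.3% of all genes in that direction, and 8 were without chronic Ctrl 1. *Tnnt3*, fast troponin T, was at 0.319 to 1.10 CPM (median 0.625) in acute hearts and at 462, 417, 135, 126 and 155 CPM in chronic hearts, a log2 fold change of 8.66 ± 0.28 (SE, adjusted p = 3.03e-16). *Actn3*, the fast-fibre actinin, gave 7.78 ± 0.37 (adjusted p = 1.87e-13), and *Pvalb*, parvalbumin, 7.004 ± 0.46 (adjusted p = 3.39e-11). *Atp2a1*, the calcium pump of fast muscle, which the marker list did not hold, was at 0.265 to 3.34 CPM in acute and at 505, 463, 137, 147 and 159 CPM in chronic hearts. The same RNA was present in the other groups of the chronic study, where *Myh4* was at 176–447 CPM in 6 Doxo and at 197–337 CPM in 6 Doxo-NMN hearts, against at most 0.0730 CPM in any heart of the 3 acute groups. These values were normalized over all 57 hearts. The part of fast-muscle RNA in other differences between the sets was not tested.

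**Figure D3:**
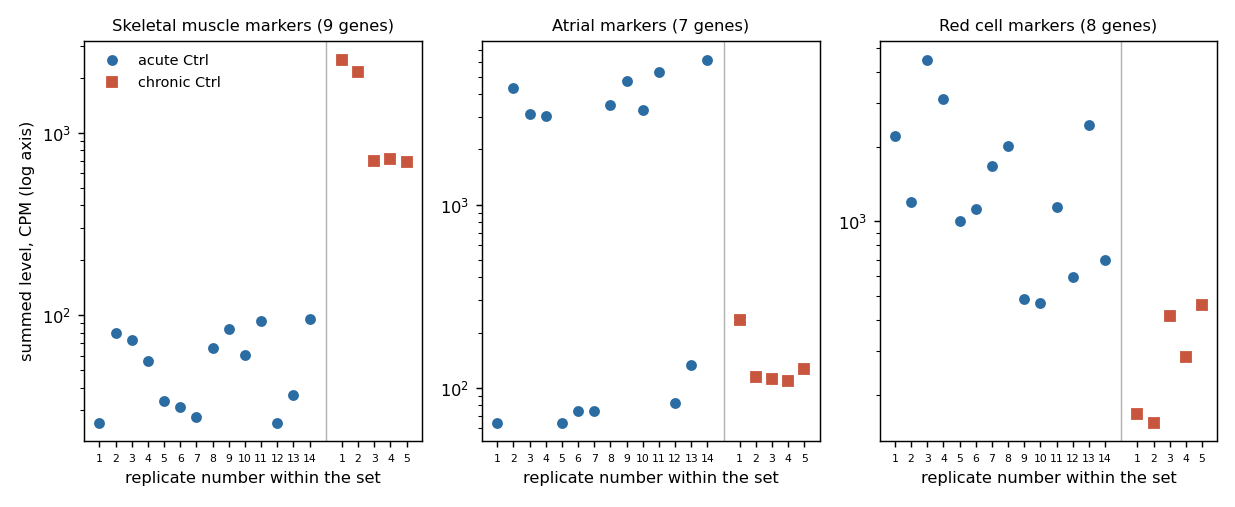
Summed level (CPM, log axis) of the markers of fast skeletal muscle, of atrial myocytes and of red cells in each heart, by its replicate number. Fast-muscle RNA is higher in all 5 chronic Ctrl hearts (687–2513 CPM) than in any acute Ctrl heart, atrial RNA splits the acute hearts into 8 high and 6 low, and red cell RNA is higher in every acute heart (469–4497 CPM) than in any chronic heart (154–461 CPM).

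The sets differed in many genes. Genes were tested with edgeR's quasi-likelihood F-test with Benjamini-Hochberg adjustment and called where the adjusted p was under 0.05 and the sets differed by 1.5-fold or more. Fold changes are chronic Ctrl relative to acute Ctrl, so a positive log2 value is higher in chronic Ctrl. Of 14341 genes, 4568 (31.9%) were called, 2192 (15.3%) of them higher in chronic Ctrl and 2376 (16.6%) higher in acute Ctrl. In 4680 genes (32.6%) the values of the 2 sets did not overlap. At 4-fold, 515 genes (3.59%) were called, 47 (0.328%) higher in chronic and 468 (3.26%) higher in acute Ctrl. Without chronic Ctrl 1 and 2 there were 4414 calls, and among acute hearts under 100 CPM of *Myl4* with all chronic hearts 4103. The median log2 fold change of all tested genes was −0.003.

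Much of the difference moved with the base composition of the genes. Ordered into 10 bins by the GC content of the exons, from a median of 39.7% to one of 59.7%, the genes had a median log2 fold change that rose in every step from −0.61 to 0.56. In the lowest bin 0.842% of genes were called higher in chronic and 49.5% higher in acute Ctrl, and in the highest bin 46.9% and 3.09%. Across 14250 genes, which are not independent replicates, the Spearman correlation with GC content was 0.573. Transcript length went the other way, with a median of 0.24 in the shortest and −0.30 in the longest of 5 bins. With the trend of each heart on GC content and length removed, 1298 genes (9.11% of 14250) were called higher in chronic and 1318 (9.25%) higher in acute Ctrl, and 1851 of these 2616 were called in both fits. This removal was chosen after the trend was seen. Values with the trend removed are given below for many genes and lists. Counts of called list members below are to be read against the 15.3% and 16.6% of all genes, or with the trend removed against 9.11% and 9.25%. The source of the trend was not tested.

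**Figure D4:**
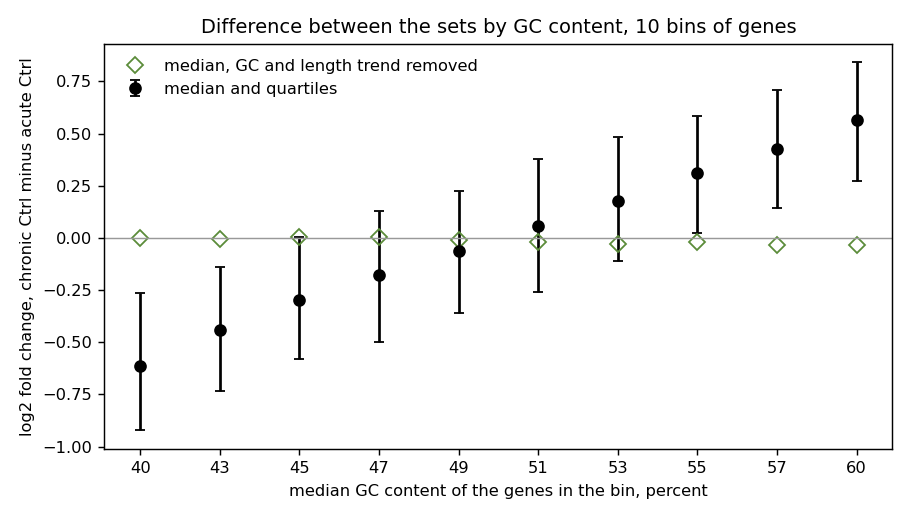
Median log2 fold change, chronic minus acute Ctrl (y axis), of 10 bins of genes ordered by GC content (x axis, median GC percent of the bin), with bars from the lower to the upper quartile. The medians climb from −0.61 at the lowest to 0.56 at the highest GC content, and open diamonds, the medians with the GC and length trend removed, stay near 0.

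Genes with near-identical copies were among the largest differences toward acute Ctrl. Of the 13 proteins encoded by mitochondrial DNA, 6 were called higher in acute Ctrl, 0 higher in chronic Ctrl and 7 not called. *mt-Co3*, a subunit of complex IV, was at 737 to 1073 CPM (median 879) in acute hearts and at 0.987, 0.677, 0.697, 1.02 and 0.676 CPM in chronic hearts, a log2 fold change of −10.12 ± 0.15 (SE, adjusted p = 4.11e-22) and of −9.51 with the trend removed. *mt-Co2* of complex IV stood at 588 to 888 CPM against 0.620 to 1.60 CPM, *mt-Atp6* of the ATP synthase at 319 to 477 CPM against 0.451 to 0.962 CPM, and *mt-Nd3* of complex I at 197 to 287 CPM against 2.61 to 11.4 CPM. *mt-Nd4l* and *mt-Atp8*, at 109 to 153 CPM and 249.9 to 369 CPM in acute hearts, had at most 3 counts in any chronic heart. All of these are far below *mt-Co1*, which held 1465486 to 1935897 counts in each chronic heart and was not called, at 73380.3 to 106352 CPM in acute and from 82542 to 97124 CPM in chronic hearts (adjusted p = 0.841).

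For 5 of these 6 genes an annotated copy lies on chromosome 1 (mm10, minus strand). *Gm28437*, at chr1:24613189-24613971, matches *mt-Co3* (chrM:8607-9390) over all of its 783 bases, and *Gm28661*, *Gm10925* and *Gm10222* match *mt-Co2*, *mt-Atp6* and *mt-Nd4l* without a mismatch over 681, 678 and 294 bases. *Gm28438* (chr1:24612775-24613119) differs from *mt-Nd3* in 1 of 345 bases, T3C, counted from the first base of the gene. The first 60 bases of 2 of the pairs are shown because a read from such a gene and one from its copy are alike wherever the pair does not differ. Capitals mark the base at which a pair differs, and *mt-Co3* and its copy have none in this stretch.
mt-Co3: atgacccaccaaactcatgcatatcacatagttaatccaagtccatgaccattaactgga
Gm28437: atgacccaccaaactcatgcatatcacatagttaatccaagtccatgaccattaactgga
mt-Nd3: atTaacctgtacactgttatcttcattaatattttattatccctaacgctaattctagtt
Gm28438: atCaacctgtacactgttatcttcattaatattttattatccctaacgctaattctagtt

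In the chronic table these 5 copies held 8 to 280 counts per heart and the 5 mitochondrial genes 0 to 208. Gene and copy together came to at most 7.90 CPM in any chronic heart for *mt-Co3*, 16.3 for *mt-Co2*, 6.58 for *mt-Atp6*, 13.9 for *mt-Nd3* and 0.822 for *mt-Nd4l*, while each gene alone was at 109 CPM or more in every acute heart. Reads with several places would be in neither count if they were left out, so these sums cannot show how many there were. *mt-Atp8* shares no 100-base word with another annotated gene and showed the same pattern, but copies outside annotated genes were not sought. How reads with several places were counted in each table is not given in the sources used here, so the levels of these genes are uncertain. The other 7 mitochondrial genes differed by less than 1.5-fold, among them *mt-Cytb* (30169 to 41658 CPM in acute and 60833, 44837, 46359.6, 49730.0 and 40349 CPM in chronic hearts, log2 fold change 0.46 ± 0.09, adjusted p = 7.46e-05), whose ranges overlapped in CPM through chronic Ctrl 5. Of these 7, *mt-Nd4* shares 60.8% of its 100-base words with *Gm28439* and *mt-Co1* 26.3% with *Gm29216*, both also on chromosome 1. *mt-Nd4* was at 11876 to 16639 CPM in acute and from 10458 to 19692 CPM in chronic hearts. Copies on chromosome 1 were thus not confined to the genes called higher in acute Ctrl. With the GC and length trend removed, *mt-Cytb* (0.93), *mt-Nd1* (0.81) and *mt-Nd6* (0.89) were called higher in chronic Ctrl.

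Pseudogenes showed the same direction. Of 332 pseudogenes tested, 81.6% were called higher in acute and 4.22% higher in chronic Ctrl, with a median log2 fold change of −3.93, against 14.97% and 15.4% and a median of 0.01 in 13649 protein-coding genes. *Tpt1-ps3*, a copy of the gene of the translationally controlled tumour protein, was at 33.8 to 44.4 CPM in acute and at 5.35 to 7.02 CPM in chronic hearts (log2 fold change −2.67 ± 0.07, adjusted p = 1.29e-17). *Eif4a-ps4* gave −4.04 ± 0.12, *Ybx1-ps2* −5.68 ± 0.17 and *Fabp3-ps1* −4.57 ± 0.17. Of 298 genes that share more than 50% of their 100-base words with another gene, 54.7% were called higher in acute and 12.1% higher in chronic Ctrl. Among the 9732 genes that share under 1%, 2940 were called, 1432 higher in chronic and 1508 higher in acute Ctrl, and 188 at 4-fold.

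Among the 24 sarcomere genes, 3 were called higher in chronic Ctrl, 2 higher in acute Ctrl and 19 not called, with a median log2 fold change of 0.22. *Acta1*, skeletal actin, which the heart also makes at low level, was at 52.5 to 483 CPM (median 199.5) in acute and at 1077, 721, 529.9, 449 and 645 CPM in chronic hearts (log2 fold change 1.54 ± 0.30, adjusted p = 0.000141). *Tcap*, which anchors titin in the Z disc, was at 448 to 912 CPM and at 1965, 1219, 1352, 1889 and 1530.3 CPM, with no overlap (log2 fold change 1.22 ± 0.13, adjusted p = 6.32e-08). With the trend removed the *Tcap* value was 0.52 and no longer called. *Myh7b*, a slow myosin, gave 1.26 ± 0.17 (adjusted p = 1.64e-06). Fast muscle also makes *Acta1* and *Tcap*, and without chronic Ctrl 1 and 2 their log2 fold changes were 1.22 and 1.24. The chronic hearts that remained still held 687–721 CPM of fast-muscle markers, so the part of fast muscle in these values was not tested.

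In the other direction, *Nebl* (nebulette, of the cardiac Z disc) was at 358 to 447 CPM (median 384) in acute and at 105, 187, 131, 127 and 146 CPM in chronic hearts, a log2 fold change of −1.50 ± 0.10 (adjusted p = 2.25e-11) and of −0.75 with the trend removed. *Ttn*, the giant spring protein titin, was at 5598 to 7522 CPM (median 6291) and at 2786, 3992, 3159, 2992 and 3579 CPM, without overlap (log2 fold change −0.98 ± 0.09, adjusted p = 4.05e-09), and at −0.35 with the trend removed it was no longer called. The main heavy chain *Myh6*, at 31014 to 37985 CPM in acute and from 25688 to 36337 CPM in chronic hearts, and the slow one, *Myh7*, at 366 to 506 CPM and 346 to 602 CPM, overlapped between the sets and were not called (adjusted p = 0.342 and 0.929). The sarcomere genes *Actc1* (0.46 ± 0.12), *Tnnt2*, cardiac troponin T (0.57 ± 0.07), and *Myl2* (0.33 ± 0.12), and outside the list *Mb* (0.53 ± 0.10), passed the adjusted p at less than 1.5-fold. Without chronic Ctrl 1 *Myl2* stood at 0.28 and did not pass (adjusted p = 0.0604). Of the 24 genes, 2 were called higher in chronic and 1 higher in acute Ctrl with the trend removed.

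Of 76 nuclear genes of the respiratory chain, 19 were called higher in chronic Ctrl and 4 higher in acute Ctrl, against 15.3% and 16.6% of all genes, at a median of 0.22. Among hearts under 100 CPM of *Myl4* the counts were 13 and 6, and 9 and 4 of 75 there with the trend removed. *Ndufs7* of complex I was at 199 to 284 CPM (median 239) in acute and at 749, 462, 610.0, 743 and 629 CPM in chronic hearts (log2 fold change 1.40 ± 0.09, adjusted p = 4.99e-11, 0.75 with the trend removed). *Cox8b*, a subunit of complex IV in heart and muscle, was at 209 to 315 CPM and 719, 406, 595, 610.0 and 577 CPM (log2 fold change 1.19 ± 0.10, adjusted p = 1.77e-09). *Cox6a1*, the form of its subunit outside muscle, which the list did not hold, gave 1.99 ± 0.09. The lowest values were those of 2 members called higher in acute Ctrl, *Atp5l* at −3.82 ± 0.12 (−3.13 with the trend removed) and *Ndufb4* at −1.59 ± 0.10. *Atp5l* shares 210 of its 6536 100-base words (3.21%, over all its annotated transcripts) with the pseudogene *Gm10221* (chr5:24581554-24581862). Those 210 are all the words that a pseudogene of this length can hold. The low percent therefore does not show how many *Atp5l* reads also match it. With the trend removed, 20 of 75 were called higher in chronic and 3 higher in acute Ctrl.

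Of 30 genes of fatty acid use, 8 were called higher in acute Ctrl and 1 higher in chronic Ctrl, against 16.6% and 15.3% of all genes (median −0.14, and 9 and 0 with the trend removed). *Pdk4*, the kinase that shuts off glucose oxidation when fat is burned, was at 540.3 to 1635 CPM (median 1145) in acute and at 122, 162, 230.0, 181 and 213 CPM in chronic hearts. The sets did not overlap, and the log2 fold change was −2.57 ± 0.29 (adjusted p = 9.59e-08). *Ppargc1a*, the coactivator PGC-1α that drives mitochondrial genes, was at 257 to 714 CPM (median 371) and at 47.3, 89.9, 62.5, 57.6 and 73.3 CPM, again without overlap (log2 fold change −2.58 ± 0.22, adjusted p = 1.3e-09, −1.98 with the trend removed). *Angptl4*, an inhibitor of lipoprotein lipase that rises in fasting, was at 5.35 to 53.5 CPM (median 20.1) and at 6.09, 2.42, 2.74, 3.31 and 2.99 CPM, and here the ranges overlapped (log2 fold change −2.70 ± 0.62, adjusted p = 0.000672). *Hadhb*, of the mitochondrial oxidation enzyme, gave −1.03 ± 0.13 (adjusted p = 5.77e-07) and −0.43, no longer called, with the trend removed. The transporter *Slc27a1*, at 0.59, was the 1 member called higher in chronic Ctrl, and it lost the call with the trend removed.

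Of 20 genes of glucose use, 3 were called higher in chronic Ctrl and 2 higher in acute Ctrl, no more than the 15.3% and 16.6% of all genes. *Pgam2*, the muscle phosphoglycerate mutase, was at 297 to 471 CPM in acute and at 985, 603, 745, 830.2 and 722 CPM in chronic hearts (log2 fold change 1.02 ± 0.10, adjusted p = 2.12e-08). *Pgk1* was at 296 to 396 CPM and 157, 216, 213, 225 and 224 CPM (log2 fold change −0.75 ± 0.08, adjusted p = 7.14e-08), and 51.7% of its 100-base words are also in other genes. After the trend was removed, 0 and 1 of 19 were called, and *Pgam2* stood at 0.55.

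Calcium cycling genes were called in 1 direction, with 4 of 15 higher in acute Ctrl, against 16.6% of all genes. *Atp2a2* was at 16569.6 to 19671 CPM (median 18034) in acute and at 4625, 14045, 12220.0, 11309.6 and 13929 CPM in chronic hearts (log2 fold change −0.69 ± 0.15, adjusted p = 0.000426). Chronic Ctrl 1 was far the lowest, and without it the value was −0.47, under 1.5-fold, as was −0.52 with the trend removed. *Ryr2*, the calcium release channel, was at 2116 to 2552 CPM (median 2368) and 682, 1552, 1206, 1047 and 1394 CPM, without overlap (log2 fold change −0.99 ± 0.12, adjusted p = 2.93e-07). *Slc8a1*, the sodium-calcium exchanger, gave −0.89 ± 0.14 (adjusted p = 7.34e-06) and 0.04 with the GC and length trend removed, and *Asph*, a gene of the calcium release complex, gave −0.65 ± 0.08 and −0.20. Without chronic Ctrl 1 the *Asph* value was −0.55, under 1.5-fold. After that removal 1 of the 15 was called in each direction. Of 16 ion channel and connexin genes, 3 were called higher in acute Ctrl, near the share of all genes, and 0 in chronic Ctrl, among them *Kcne1* (−1.46 ± 0.22, adjusted p = 6.65e-06) and *Kcnd2*, a channel of the fast repolarizing current (−1.01 ± 0.18, adjusted p = 5.73e-05), and with the trend removed 5 and 1 were called.

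Of 9 genes raised by stretch or load, 4 were called higher in chronic and 1 in acute Ctrl (4 and 2 with the trend removed), against 15.3% and 16.6% of all genes. *Nppb*, the ventricular natriuretic peptide, was at 102 to 275 CPM (median 175) in acute and at 607, 314, 376, 382 and 522 CPM in chronic hearts, without overlap (log2 fold change 1.24 ± 0.19, adjusted p = 8.06e-06). *Ankrd2*, a stretch-induced protein of slow and fast muscle, was at 0.0439 to 0.359 CPM and 4.17, 4.30, 1.89, 2.03 and 2.14 CPM. Its highest values were in chronic Ctrl 1 and 2, the hearts with the most fast-muscle RNA. The part of fast-muscle RNA in its level, and so in the count of 4, was not tested. *Rcan1*, a feedback inhibitor of calcineurin, was higher in acute Ctrl (−0.77 ± 0.17, adjusted p = 0.000568).

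All 7 atrial markers were called higher in acute Ctrl, which holds 8 hearts with atrial RNA, and 6 were without chronic Ctrl 1. *Stard10* missed an adjusted p of 0.05 when chronic Ctrl 1, 2, 3 or 5 was left out. *Myl7* gave −8.23 ± 2.10 (adjusted p = 0.00168), *Myl4* −7.63 ± 1.90 (adjusted p = 0.00138) and *Nppa*, the atrial natriuretic peptide, −2.83 ± 0.97 (adjusted p = 0.0143). The 6 acute hearts under 100 CPM of *Myl4* were chosen by an atrial marker. A loss of most of the acute excess was therefore fixed by the choice, and the values in these hearts are no test of it. Among these and the 5 chronic hearts *Nppa* was higher in chronic Ctrl by 0.94 (adjusted p = 0.00509) and *Stard10* by 0.66 (adjusted p = 0.000154), *Dkk3* stood at 0.28 (adjusted p = 0.334), and *Myl7*, *Myl4* and *Sln* at −0.95, −0.77 and −1.07 (adjusted p = 0.297, 0.231 and 0.362). Of the 7 markers, *Bmp10* stayed called higher in acute Ctrl there (adjusted p = 9.15e-05).

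Clock genes were called in both directions. Of 17 clock genes and direct clock outputs, 9 were called higher in chronic Ctrl, 5 higher in acute Ctrl and 3 not called, and in 10 the sets did not overlap, against 15.3%, 16.6% and 32.6% of all genes. *Dbp*, a transcription factor switched on directly by the clock, was at 5.75 to 24.4 CPM (median 14.6) in acute and at 89.1, 70.4, 56.1, 98.2 and 88.3 CPM in chronic hearts, a log2 fold change of 2.51 ± 0.22 (adjusted p = 3.42e-09) and of 1.79 with the trend removed. *Ciart*, a repressor of the clock, was at 1.60 to 4.24 CPM (median 3.18) and at 9.11, 10.01, 7.41, 15.1 and 16.4 CPM (1.89 ± 0.19, adjusted p = 2.05e-08). All 5 chronic hearts were above all 14 acute hearts for both genes.

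The period genes, which close the feedback loop by blocking *Arntl* and *Clock*, were also higher in chronic Ctrl. *Per3* was at 8.93 to 17.2 CPM in acute and at 68.4, 46.8, 27.9, 36.7 and 31.9 CPM in chronic hearts (log2 fold change 1.71 ± 0.16, adjusted p = 9.85e-09), and *Per2* at 5.004 to 12.7 CPM and 58.04, 34.7, 11.4, 29.8 and 26.98 CPM (1.87 ± 0.24, adjusted p = 4.98e-07). *Per2* overlapped through chronic Ctrl 3. *Per1* gave 0.97 ± 0.15 (adjusted p = 1.1e-05) and 0.47 with the trend removed, which ended its call, as it did for *Cry2* (0.74 ± 0.09, then 0.36). *Tef* (0.81 ± 0.11), *Bhlhe40* (0.85 ± 0.16) and *Bhlhe41* (1.23 ± 0.09), further outputs, were called in the same direction.

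The activators went the other way. *Arntl* was at 18.99 to 34.2 CPM (median 24.3) in acute and at 3.95, 5.56, 15.8, 7.69 and 8.11 CPM in chronic hearts, without overlap (log2 fold change −1.60 ± 0.21, adjusted p = 1.03e-06). *Clock* was at 71.4 to 83.8 CPM (median 75.8) and 23.4, 25.6, 26.9, 22.9 and 25.2 CPM (−1.63 ± 0.05, adjusted p = 4.91e-16), and at −0.85 with the trend removed. *Npas2*, a relative of *Clock*, gave −1.23 ± 0.21 and *Nfil3*, a repressor that opposes *Dbp*, −1.11 ± 0.18. *Cry1*, a repressor, was higher in acute Ctrl too (−0.60 ± 0.13, adjusted p = 0.000392), unlike *Cry2*, though at −0.52 it was under 1.5-fold without chronic Ctrl 3. *Nr1d1* (0.46 ± 0.14) and *Nr1d2* (−0.46 ± 0.11) passed the adjusted p at less than 1.5-fold, and both turned sign at values close to 0 with the trend removed (−0.02 and 0.04). With the trend removed, 7 clock genes were called higher in chronic and 5 higher in acute Ctrl. The hour of day at which hearts were taken is not given in the sources used here.

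**Figure D5:**
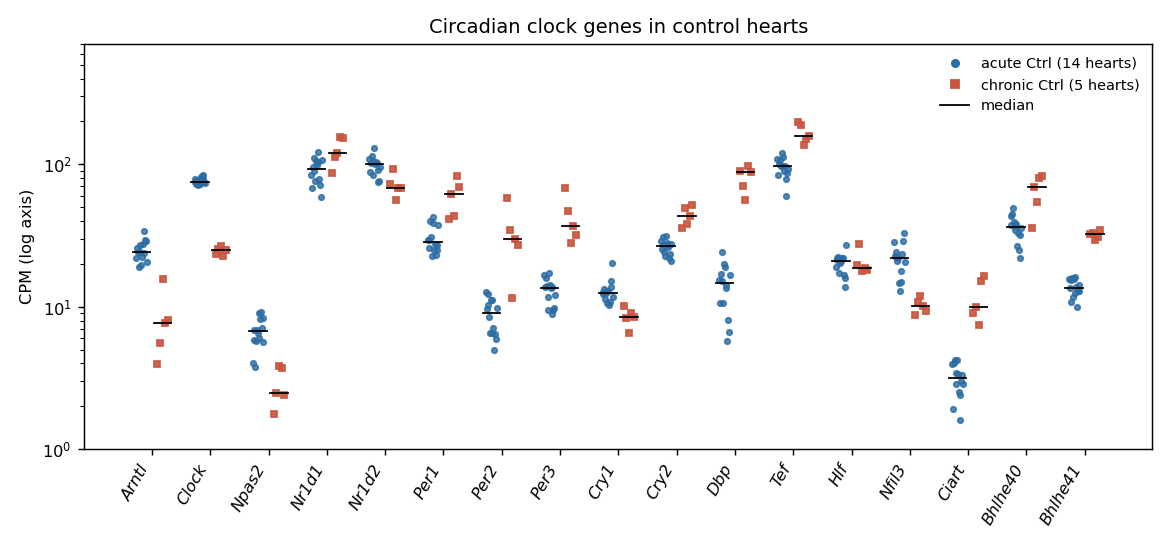
Level (CPM, log axis) of the 17 clock genes in each control heart, with the median of each set as a bar. *Dbp*, *Ciart* and *Per3* lie higher in all 5 chronic Ctrl hearts and *Arntl*, *Clock* and *Nfil3* lower, while the sets overlap for *Hlf*.

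*Dbp* and *Clock* are given for the treated hearts of each study too. *Dbp* was at 6.72–31.3 CPM in 13 acute Doxo hearts and at 20.8–72.0 CPM in 13 acute Doxo-NMN hearts. In the chronic study it was at 29.3–128 CPM in Doxo and at 87.8–115 CPM in Doxo-NMN hearts. *Clock* was at 55.3–76.4 CPM in acute Doxo and at 41.7–58.0 CPM in acute Doxo-NMN hearts, and at 17.5–28.7 CPM over the 12 treated chronic hearts, below every acute heart.

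*Arntl* and *Clock* bind as a pair to the E-box, CACGTG, which reads the same on both strands. It was sought in the 250 bases before each RefSeq start of a gene (GRCm38.p6), and a gene with several starts was counted once. Of 27025 genes with such a window 6.86% held it, and of the 15 clock genes with a window 5 did (33.3%). Among the members called higher in chronic Ctrl it was in 4 of 7, and among those higher in acute Ctrl in 1 of 5. The list was chosen as clock genes and their direct outputs, so a share above that of all genes can come from this choice. These counts are therefore no test of the difference between the sets. Lacking the motif in this window says nothing about sites elsewhere, and *Dbp* had none here. The windows of 2 genes higher in chronic Ctrl are given because they show the motif at its most and at 1 copy, with E-boxes in capitals. *Ciart* (chr3:95882229-95882478, minus strand) holds 3 and *Bhlhe41* (chr6:145865421-145865670, minus strand) holds 1.
Ciart: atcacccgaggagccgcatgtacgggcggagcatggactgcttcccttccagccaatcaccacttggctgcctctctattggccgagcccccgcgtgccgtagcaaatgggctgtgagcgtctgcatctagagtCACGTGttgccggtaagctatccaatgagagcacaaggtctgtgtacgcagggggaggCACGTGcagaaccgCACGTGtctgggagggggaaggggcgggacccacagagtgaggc
Bhlhe41: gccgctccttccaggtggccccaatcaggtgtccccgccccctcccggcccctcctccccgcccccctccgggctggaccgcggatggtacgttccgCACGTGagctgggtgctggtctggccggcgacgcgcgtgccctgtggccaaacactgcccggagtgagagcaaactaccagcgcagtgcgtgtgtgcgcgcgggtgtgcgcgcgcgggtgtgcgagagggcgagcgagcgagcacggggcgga

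Genes switched on by glucocorticoids, the stress hormones, were called mostly higher in acute Ctrl, 5 of 10, with 1, *Per1*, higher in chronic Ctrl (6 and 0 with the trend removed). *Zbtb16* was at 186 to 266 CPM (median 211) in acute and at 22.7, 47.6, 30.3, 49.5 and 46.1 CPM in chronic hearts (log2 fold change −2.44 ± 0.15, adjusted p = 1.02e-11). *Fkbp5*, which curbs the glucocorticoid receptor, was at 33.3 to 92.9 CPM (median 50.05) and 13.1, 16.7, 12.8, 14.2 and 16.7 CPM (−1.91 ± 0.19, adjusted p = 1.43e-08). *Cdkn1a* (p21), a cell cycle inhibitor that p53 also switches on, was at 48.9 to 79.5 CPM (median 64.4) and 18.1, 15.4, 17.8, 16.99 and 17.3 CPM (−1.91 ± 0.12, adjusted p = 1.59e-11). For these 3 genes and *Map3k6* (−1.36 ± 0.12) every acute heart was above every chronic heart. *Tsc22d3* (−0.50), also induced by glucocorticoids, passed the adjusted p at less than 1.5-fold, and *Sgk1*, at 42.9 to 80.4 CPM in acute and from 52.9 to 73.2 CPM in chronic hearts, was not called (adjusted p = 0.609).

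Antigen presentation genes were called in the other direction, with 5 of 10 higher in chronic Ctrl and 0 in acute Ctrl (4 and 0 with the trend removed). *H2-D1*, an MHC class I chain, was at 115 to 201 CPM (median 154) in acute and at 484, 264, 270.3, 309 and 278 CPM in chronic hearts (log2 fold change 1.05 ± 0.12, adjusted p = 8.96e-08), and *H2-K1* gave 0.997 ± 0.13. With the trend removed *H2-D1* stood at 0.57, just under 1.5-fold. *Psmb8* and *Psmb9*, subunits of the immunoproteasome, gave 1.31 ± 0.14 and 1.35 ± 0.18. Chronic Ctrl 1 was the highest heart for all 4, and the other 4 chronic hearts still lay above all acute hearts. The 4 class II genes of the list (*H2-Aa*, *H2-Ab1*, *H2-Eb1* and *Cd74*) were not called.

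Markers of other heart cells also differed, and in bulk RNA fewer cells of a type and less RNA per cell cannot be told apart. Of 8 endothelial markers 4 were called higher in chronic Ctrl and 0 in acute Ctrl, among them *Cdh5*, the cadherin of vessel walls, at 127 to 191.7 CPM (median 143) in acute and 398, 257, 310.4, 323 and 266 CPM in chronic hearts (log2 fold change 0.998 ± 0.10, adjusted p = 2.82e-08). Of 8 fibroblast markers 5 were called higher in acute Ctrl, led by *Lum* (−1.19 ± 0.23, adjusted p = 0.000119), and 1, *Tcf21*, higher in chronic Ctrl (0.79 ± 0.16, adjusted p = 0.000245). The 8 markers summed to 1121–1533 CPM in the 8 acute hearts with atrial RNA, to 803–1051 CPM in the other 6 and to 676–772 CPM in chronic hearts. Among hearts under 100 CPM of *Myl4*, 3 were called higher in acute Ctrl and *Lum* stood at −0.62, and with the trend removed there as well, 1 was and *Lum* stood at −0.21 (adjusted p = 0.152). In all hearts with the trend removed, 4 were called higher in acute and 1 in chronic Ctrl. The part of atrial RNA in the fibroblast counts was not tested further. Of 9 macrophage markers 4 were called higher in acute Ctrl and 0 in chronic Ctrl, among them *Lyve1* (−1.28 ± 0.21), *Cd163* (−1.27 ± 0.16) and *Mrc1* (−0.96 ± 0.16), markers of resident macrophages. After removal of the trend 5 were called, and *Mrc1* was not (−0.51). Of 8 red cell markers 6 were called higher in acute Ctrl, with *Hbb-bs* at −2.69 ± 0.53 (adjusted p = 0.000138). Of the 6 fat markers tested, of 8 listed, 2 were called higher in acute Ctrl (3 with the trend removed). *Cfd*, a protease secreted by fat cells, was at 5.88–25.9 CPM in the 8 acute hearts with atrial RNA, at 0–0.554 CPM in the other 6 and at 0 to 3.13 CPM in chronic hearts. Among hearts under 100 CPM of *Myl4*, 2 fat markers could be tested, and 1 was called higher in chronic and 0 in acute Ctrl. Of 4 tested B and T cell markers, 2 were called higher in chronic Ctrl at levels of at most 1.92 CPM.

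Further lists are given by their counts. Matrix and growth genes had 6 of 16 called higher in acute and 2 higher in chronic Ctrl (9 and 1 with the trend removed). *H19*, an imprinted RNA of growing tissue, was at 11.4 to 111 CPM (median 60.7) and 9.93, 9.48, 9.10, 9.19 and 12.6 CPM (−2.39 ± 0.56, adjusted p = 0.000774), and −0.71 among the hearts under 100 CPM of *Myl4*. Cell division genes had 5 of 16 higher in chronic and 1 in acute Ctrl (2 and 0 without chronic Ctrl 1), heat shock genes 3 and 1 of 13, immediate early genes 3 and 1 of 14, antioxidant genes 3 and 1 of 18, interferon genes 2 and 0 of 14, and long non-coding RNAs 2 and 2 of 10. These counts became 3 and 0 for cell division, 1 and 0 for heat shock, 0 and 2 for immediate early, 1 and 3 for antioxidant, 4 and 0 for non-coding and 1 and 0 for interferon genes with the trend removed. Of 17 genes of NAD+ synthesis and use, 2 were called in each direction, with *Naprt*, which makes NAD+ from nicotinic acid, at 0.92 ± 0.09 and the NAD+-dependent deacetylase *Sirt1* at −0.81 ± 0.08. Both lost the call with the trend removed (0.27 and −0.45), where 2 of 16 were called higher in chronic and 0 in acute Ctrl. Markers of mural cells had 1 of 6 called higher in chronic Ctrl, glial markers 2 of 4 higher in chronic and 1 in acute Ctrl, mesothelial markers 1 of 4 higher in chronic Ctrl (4 among hearts under 100 CPM of *Myl4*), and neutrophil markers 1 of 2 tested higher in acute Ctrl. Mural and neutrophil markers had 0 calls, and glial markers 3 and 1, with the trend removed.

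*Nnt*, a mitochondrial transhydrogenase, is known to be disrupted in C57BL/6J mice of the Jackson line, so its level was looked at in every heart. *Nnt* was at 393 to 587 CPM (median 469.9) in acute hearts and at 183, 472, 433, 417 and 486 CPM in chronic hearts. Chronic Ctrl 1 was below all others, and the other 4 lay within the acute range. The log2 fold change was −0.28 ± 0.15 (adjusted p = 0.102). These are counts over the whole gene, so they do not show whether *Nnt* was intact in either set. No gene without a count in one set reached 10 CPM in every heart of the other.

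Outside the lists, the genes with the smallest p higher in chronic Ctrl that are not of fast muscle were *Pfn1* and *Cox6a1*. *Pfn1*, profilin, which feeds actin monomers to growing filaments, was at 90.1 to 106 CPM (median 98.3) in acute and at 362, 229, 279, 295 and 276 CPM in chronic hearts (log2 fold change 1.54 ± 0.06, adjusted p = 1.91e-14, and 0.91 with the trend removed). *Cox6a1* was at 34.1 to 44.7 CPM (median 37.9) and 203, 109, 143, 166 and 141 CPM. *Nrarp*, a brake on Notch signalling, gave 2.03 ± 0.15, *H2-Q6* 2.05 ± 0.26 and *Bc1*, a small RNA known from neurons, 2.16 ± 0.17 (4.002 with the trend removed), all without overlap between the sets.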

How the data were processed

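Poly(A) RNA of mouse hearts was sequenced as single-end reads on a NovaSeq instrument. The deposited values are raw counts of reads per gene, 1 table per study, with replicates kept apart. The submitters' processing notes name mm10, STAR 2.7.3a and featureCounts 2.0.0, and the strand setting, the annotation and the treatment of reads with several places are not given in the sources used here. Tables of 25416 (acute) and 54658 (chronic) gene symbols were joined by symbol. The joined genes held 32409622 to 43907454 counts per acute and 17624351 to 20680837 per chronic Ctrl heart. Low acute counts were mostly even, so which set is deeper in reads is unsure, and a fit with acute counts divided by 2 was among the alternatives.

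Counts of the 19 hearts were filtered (filterByExpr), scaled (TMM) and tested with edgeR 4.0.16 (R 4.3.3, limma 3.58.1), glmQLFit and glmQLFTest, with Benjamini-Hochberg adjustment. Shares were compared by exact permutation tests (scipy 1.17.1). SDs used log2 CPM with a prior count of 2. Lengths, GC content and shared words came from GENCODE M21, in which 24842 symbols matched 1 gene. The GC and length trend was removed with loess offsets (span 0.3). The fit was tested on simulated data. Same-numbered hearts of both sets did not deviate together. Alternatives were other scalings, filters and tools (DESeq2 1.42.0), subsets of hearts, thinning and a replicate block. The removal of the GC and length trend, the limit on shared words, their combinations and the omission of chronic Ctrl 1 and 2 were chosen after seeing the data.

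Hearts, gene lists and tests were chosen with earlier results of these data known. Genes were named if they were among the 15 most abundant of a set, the 8 with the smallest p or largest fold change in a direction, the 4 with the largest fold change of a list, or the 10 most variable of a set, or were sarcomere, mitochondrial, clock or atrial genes or *Nnt*. Other genes of the lists, *Mb* among them, were named after their values were seen. 1 listed gene is not reported here.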

Additional observations from a re-analysis of the deposited data

Results flagged for a closer look

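Among 92 results with a value in each of the 5 chronic Ctrl hearts, 19 (20.7%) had 1 heart whose gap to the nearest other was over 0.71 of the whole range, a rule that chance meets in about 1 in 20 groups. The 14 acute hearts are too many for the rule. Chronic Ctrl 1 was the heart that stood out in 14 of the 19 and chronic Ctrl 5 in the other 5.

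Chronic Ctrl 1 was the highest for the antigen presentation genes *H2-D1* (484 CPM, others 264 to 309), *H2-K1* (343 CPM, others 184 to 209), *Psmb9* (20.8 CPM, others 8.12 to 9.40) and *H2-Q6* (72.7 CPM, others 34.9 to 43.5). It was also the highest for the atrial peptide *Nppa* (203 CPM, others 66.6 to 86.6) and with it for the atrial marker sum (235 CPM, others 108 to 127), for *Myh7b* (554 CPM, others 250.4 to 321), *Bc1* (58.9 CPM, others 19.4 to 28.95) and *Angptl4* (6.09 CPM, others 2.42 to 3.31). More genes were detected in it at equal depth (14544, others 14103 to 14227). It was the lowest for cardiac actin *Actc1* (7236 CPM, others 10563 to 11587), *Nnt* (183 CPM, others 417 to 486), *Pgk1* (157 CPM, others 213 to 225) and *Tcf21* (9.66 CPM, others 12.4 to 13.3).

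Chronic Ctrl 5 was the highest for 4 atrial genes, *Sln* (2.20 CPM, others 0.0498 to 0.165), *Myl7* (4.39 CPM, others 0.321 to 0.945), *Myl4* (7.15 CPM, others 1.64 to 2.40) and *Bmp10* (0.225 CPM, others 0 to 0.0498), all far under the acute hearts with atrial RNA. It was also the highest for *H19* (12.6 CPM, others 9.10 to 9.93).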

How the results depend on the processing

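The number of called genes, 4568, was 3628 to 4895 under other scalings, filters, tools, depths and subsets of hearts, and 4261 with the replicate number as a block (1997 higher in chronic and 2264 higher in acute Ctrl), a number that did not pair the hearts (correlations of deviations from −0.09 to 0.05, with no heart closest to its own number). With no fold limit there were 9319 (4693 and 4626), and at 2-fold 1761 (690 and 1071). With the GC and length trend removed there were 2616 (1298 and 1318), among genes with under 1% shared words 2940 (1432 and 1508), with both 1567 (814 and 753), and in hearts under 100 CPM of *Myl4* with the trend removed 2209 (1236 and 973). Leaving out 1 heart gave 4048 to 4931 (1872 to 2388 and 2139 to 2543). Calls at 4-fold, 515, were 853 without a filter, 65 with 10 counts in every heart, 330 in hearts under 100 CPM of *Myl4* and 310 there with the trend removed, 188 and 175 under 1% shared words without and with the removal, and 496 to 559 without 1 heart. The share of the 10 most abundant genes differed by −0.0069 percentage points without mitochondrial genes (exact permutation test, p = 0.982) and by 0.27 to 1.73 without 1 heart, the mitochondrial share by 0.24 to 2.07, and detected genes by −320 to −209.5. The median SD of acute hearts was 0.142 from 1 CPM on, 0.0891 in hearts under 100 CPM of *Myl4*, 0.122 thinned and 0.100 in replicates 1 to 5, and that of chronic hearts 0.118 to 0.210 without 1 heart. Of 87 genes with a printed log2 fold change, 85 had an adjusted p under 0.05, and 77 of these kept the direction under every setting in which they were tested (33 to 37). It reversed in hearts under 100 CPM of *Myl4*, chosen by that atrial marker, without and with the trend removed, for the atrial markers *Dkk3* (0.28 and 0.18), *Nppa* (0.94 and 0.53) and *Stard10* (0.66 and 0.11). Only in the latter did it reverse for *Mb* (−0.081) and *Myl2* (−0.031). With the trend removed it reversed for *Nr1d1* (−0.024), *Nr1d2* (0.036, and 0.041 under 1% shared words), *Slc8a1* (0.036) and *mt-Nd6* (0.89, 0.40 under 1% shared words and 0.61 in hearts under 100 CPM of *Myl4*). The causes were not tested. Fold changes of genes near the lowest detectable level are the least certain.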
